A study of Mus musculus with 35 samples.

Results

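The effect of the *Htt* Q111 allele on the striatal transcriptome was examined in mice whose medium-spiny neurons (MSNs) lack *Hdac2*. By genotype label, 20 of the 35 striata in the data belonged to this comparison, 11 *Htt* Q111/+ *Hdac2* KO and 9 *Htt*+/+ *Hdac2* KO. Each library came from a different mouse. Mice of both groups were homozygous for a floxed *Hdac2* allele and carried the D9-Cre transgene, with all 20 libraries labelled Cre+. They differed by a single knock-in huntingtin allele whose CAG repeat was 110 to 144 units long (median 118). In D9-Cre, a fragment of *Ppp1r1b* (the DARPP-32 gene) drives the recombinase, which MSNs express once mice are older than 5 to 6 weeks. Glia, vessels and other neurons of the dissected striatum therefore kept *Hdac2*. The *Htt* Q111 and Cre lines were kept on C57BL/6J, and the floxed line came from a mixed C57BL/6 and 129SeEv background without full backcrossing. Ages were 21.9 to 23 weeks in the *Htt* Q111/+ and 21.7 to 22.7 weeks in the *Htt*+/+ group, with 8 males and 3 females in the former and 5 males and 4 females in the latter. A second set of 15 striata without Cre, 7 *Htt* Q111/+ *Hdac2* WT and 8 *Htt*+/+ *Hdac2* WT, provided the same contrast with intact *Hdac2* and shared no library with it. RNA of these 15 was extracted on 24, 25 or 27 May, dates that held few *Hdac2* KO libraries. A difference between the *Hdac2* backgrounds therefore cannot be told apart from Cre or, for most libraries, from extraction date.

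Gene counts per library were 52718817 to 77867348 (median 56031745) in the *Htt* Q111/+ *Hdac2* KO group and 50970712 to 58904678 (median 57322618) in the *Htt*+/+ *Hdac2* KO group. RNA extraction dates were not balanced between them. On 26 May 3 libraries of each group were extracted, on 31 May 2 *Htt* Q111/+ and 4 *Htt*+/+, and on 3 June 5 and 1, whereas 25 May held 1 *Htt* Q111/+ and 27 May 1 *Htt*+/+ library. The mouse identifiers form 3 series, A (3 *Htt* Q111/+ and 1 *Htt*+/+), V (5 and 3) and Z (3 and 5). The single *Htt*+/+ library of 3 June, replicate 1, is also that of series A. The 3 *Htt*+/+ libraries of 26 May are those of series V. Ratios within these dates and series therefore share controls. Expression values below are CPM (counts scaled to library size) with TMM factors. Log2 fold changes are *Htt* Q111/+ over *Htt*+/+, from a model of all 35 libraries with 9 surrogate variables, so they can differ from the ratio of the CPM values.

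MSNs make up most striatal neurons and divide into a direct pathway, marked by dopamine D1 receptors, and an indirect pathway, marked by dopamine D2 and adenosine A2a receptors and by enkephalin. Dopamine and adenosine act in both through cyclic AMP, protein kinase A and DARPP-32, and loss of the transcripts of this signalling system is a long-known feature of Huntington's disease models. HDAC2 is a histone deacetylase of class I, an enzyme family that removes acetyl groups from histones at active genes.

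Without neuronal *Hdac2*, several MSN transcripts were lower in *Htt* Q111/+ than in *Htt*+/+ striata by small amounts, and most listed MSN genes did not pass a test. Proenkephalin (*Penk*) had a log2 fold change of −0.36, *Ppp1r1b* of −0.20, the phosphodiesterase *Pde10a* of −0.20 and the striatal adenylyl cyclase *Adcy5* of −0.19. These 4 genes passed an unadjusted (nominal) p of 0.05 and none passed an adjusted p of 0.05. The gene past the adjusted threshold was *Pnmt*, which encodes the enzyme that converts noradrenaline to adrenaline and lies near *Ppp1r1b* on chromosome 11.

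Across all genes, 1287 of 17110 tested (7.52%) passed the nominal threshold, 557 of them up-regulated (3.26%) and 730 down-regulated (4.27%). Absolute log2 fold changes among the 1287 had a median of 0.13, and 888 of them changed by less than 0.2. Changes of at least 0.5 were seen for 116 and of at least 1 for 11. After the p values of the quasi-likelihood test of edgeR were Benjamini-Hochberg-adjusted, 1 gene (0.00584%) was under 0.05, and 6 genes had one under 0.1. No gene separated the groups fully, that is, 0 of 17110 (0%) had all 11 *Htt* Q111/+ libraries above or below all 9 *Htt*+/+ libraries.

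*Hdac2* (ENSMUSG00000019777, GRCm38 chromosome 10, 36974544 to 37001611) was at a similar level in both groups when counted over its whole length. The *Htt* Q111/+ libraries ranged from 89.5 to 101 CPM (median 95.3) and the *Htt*+/+ libraries from 89.5 to 99.1 CPM (median 93.9), with nearly complete overlap. The log2 fold change was −0.02 (SE 0.024), and the p was 0.937 by the quasi-likelihood test of edgeR, Benjamini-Hochberg-adjusted over all genes. Its medians in *Hdac2* WT striata were 105 CPM in *Htt* Q111/+ and 104 CPM in *Htt*+/+ mice, and counts over the whole gene do not show which exons are missing. *Hdac1*, the closest relative of *Hdac2*, had a log2 fold change of 0.04 between the *Hdac2* KO groups (adjusted p = 0.924, same test).

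*Pnmt* (ENSMUSG00000038216) spans chromosome 11 from 98386450 to 98388181. It ranged from 2.10 to 5.22 CPM (median 3.20) in *Htt* Q111/+ *Hdac2* KO and from 4.29 to 8.16 CPM (median 6.59) in *Htt*+/+ *Hdac2* KO striata. Of the 11 *Htt* Q111/+ libraries, 9 lay below the lowest *Htt*+/+ library, and the other 2 overlapped with the *Htt*+/+ range. *Pnmt* fell by 0.75 on the log2 scale (standard error, SE, 0.13), with a nominal p of 1.92e-06 from the quasi-likelihood test of edgeR and 0.0329 after Benjamini-Hochberg adjustment. In *Hdac2* WT striata its level was lower, between 0.443 and 1.12 CPM in *Htt* Q111/+ and between 0.636 and 0.941 CPM in *Htt*+/+ mice, with a log2 fold change of 0.16 (adjusted p = 0.857). The difference between the *Hdac2* backgrounds was −0.90 (nominal p = 9.25e-04, adjusted p = 0.549 for the interaction). Within the 3 dates that hold both groups, the log2 ratio of mean *Pnmt* was −1.23 on 26 May, −0.49 on 31 May and −0.37 on 3 June. It was −0.45, −1.22 and −0.63 in series A, V and Z, and −0.85 in males and −1.22 in females. The adjusted p of *Pnmt* rose past 0.05 without *Htt* Q111/+ replicate 2 (0.0898), 5 (0.0974), 6 (0.05002), 7 (0.0617), 8 (0.110) or 9 (0.129), and without *Htt*+/+ replicate 2 (0.0732), 3 (0.0832), 4 (0.0854) or 7 (0.0566). It was also 0.128 with extraction date as covariate, 0.285 in the libraries of shared dates and 0.161 in males, within a range of 0.000148 to 0.772 over 19 alternatives.

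The genes around *Pnmt* were described because *Ppp1r1b* supplied the fragment in the Cre transgene. Of 12 genes tested with a start within 200 kb of *Ppp1r1b*, 2 passed the nominal threshold (16.7%, against 7.52% of all genes), both down-regulated. These were *Pnmt*, 38.0 kb from the start of *Ppp1r1b*, and *Erbb2*, a receptor tyrosine kinase 64.1 kb away. *Erbb2* ranged from 3.74 to 5.88 CPM (median 5.29) in *Htt* Q111/+ and from 5.76 to 7.41 CPM (median 6.35) in *Htt*+/+ *Hdac2* KO striata, and 10 of 11 *Htt* Q111/+ libraries lay below the lowest *Htt*+/+ library. Its log2 fold change was −0.31 (SE 0.079, adjusted p = 0.161, quasi-likelihood test of edgeR, Benjamini-Hochberg-adjusted), against −0.08 in *Hdac2* WT mice (adjusted p = 0.864). *Stard3* and *Tcap*, which lie between *Ppp1r1b* and *Pnmt*, had log2 fold changes of 0.06 and −0.50 with nominal p values of 0.0815 and 0.170, the latter at 0.0888 to 1.02 CPM. The median over the 12 genes was −0.01. *Rapgefl1*, further along the chromosome (98836785 to 98852999), had 37.6 to 58.4 CPM (median 45.6) in *Htt* Q111/+ and 51.3 to 70.0 CPM (median 54.0) in *Htt*+/+ *Hdac2* KO striata, with 9 of 11 libraries below the *Htt*+/+ range. It had a log2 fold change of −0.24 (with SE 0.053, adjusted p = 0.114), and of 0.01 in *Hdac2* WT striata (adjusted p = 0.984). The difference between backgrounds was −0.24 for *Rapgefl1* (nominal p = 0.00763, adjusted p = 0.693).

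**Figure D1:**
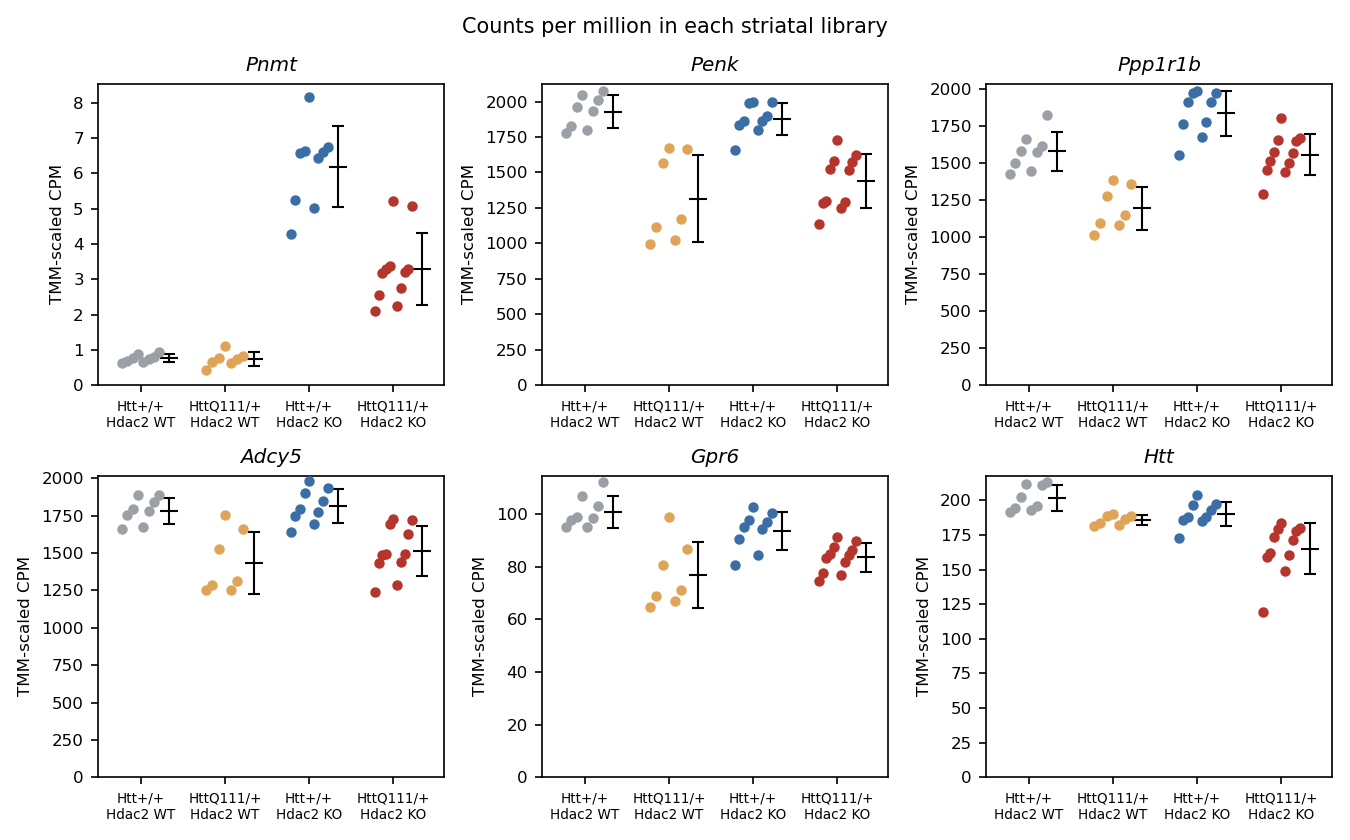
TMM-scaled CPM of *Pnmt*, *Penk*, *Ppp1r1b*, *Adcy5*, *Gpr6* and *Htt* in each library (points) of the 4 genotype groups, with bars for the mean ± SD. *Pnmt* lay at 2.10 to 5.22 CPM in *Htt* Q111/+ *Hdac2* KO libraries and at 4.29 to 8.16 CPM in *Htt*+/+ *Hdac2* KO libraries.

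Genes that mark indirect-pathway MSNs were examined as a list. Of 7 members tested, 5 passed the nominal threshold (71.4%, against 7.52% of all genes), all down-regulated. All 7 had a negative log2 fold change, and the list median was −0.17 against −0.00 over all genes tested. *Penk* (ENSMUSG00000045573, chromosome 4, 4133531 to 4138819), which encodes the precursor of the enkephalin peptides, had 1139 to 1729 CPM (median 1520) in *Htt* Q111/+ and 1660 to 2000 CPM (median 1863) in *Htt*+/+ *Hdac2* KO striata. All but 1 of the 11 *Htt* Q111/+ libraries lay below the lowest *Htt*+/+ library. The log2 fold change of *Penk* was −0.36 (SE 0.078, nominal p = 6.00e-05, adjusted p = 0.114, quasi-likelihood test of edgeR, Benjamini-Hochberg-adjusted). It was −0.60, −0.18 and −0.44 within 26 May, 31 May and 3 June. *Gpr6*, an orphan receptor coupled to cyclic AMP, had 74.7 to 91.5 CPM (median 84.5) in *Htt* Q111/+ and 80.7 to 103 CPM (median 95.1) in *Htt*+/+ striata. The ranges of *Gpr6* overlapped, with 3 *Htt* Q111/+ libraries below the *Htt*+/+ minimum and a log2 fold change of −0.19 (SE 0.052, adjusted p = 0.208). The adenosine A2a receptor gene *Adora2a* was at −0.17 (nominal p = 0.0166), the D2 receptor gene *Drd2* at −0.10 (nominal p = 0.0264) and *Upb1*, an enzyme of pyrimidine breakdown, at −0.30 (nominal p = 0.00453). *Upb1* was at 0.17 on 31 May, 0.15 in series Z and 0.03 in females. Counts for *Penk* and *Upb1* are uncertain because each overlaps a gene on the other strand, and whether strand entered the counting is not stated.

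Cyclic AMP and DARPP-32 signalling genes formed a further list. Among its 30 members, all tested, 11 passed the nominal threshold (36.7%, against 7.52% of all genes), all of them down-regulated, 24 had a negative log2 fold change, and the median was −0.04. *Ppp1r1b* (ENSMUSG00000061718, chromosome 11, 98348404 to 98357286) had 1288 to 1800 CPM (median 1566) in *Htt* Q111/+ and 1553 to 1985 CPM (median 1908) in *Htt*+/+ *Hdac2* KO striata. Of 11 *Htt* Q111/+ libraries, 5 lay below the *Htt*+/+ minimum, and the rest overlapped with the lower *Htt*+/+ libraries. Its log2 fold change was −0.20 (SE 0.042, nominal p = 3.38e-05, adjusted p = 0.0964, quasi-likelihood test of edgeR, Benjamini-Hochberg-adjusted), and the within-date ratios of *Ppp1r1b* were −0.34, −0.14 and −0.07 in date order. Part of *Ppp1r1b* is also present in the Cre transgene that every *Hdac2* KO mouse carries, and it overlaps a gene on the other strand, so its count is uncertain. *Adcy5* (ENSMUSG00000022840, chromosome 16, 35154877 to 35305737), the main adenylyl cyclase of the striatum, ranged from 1241 to 1731 CPM (median 1495) in *Htt* Q111/+ and from 1641 to 1982 CPM (median 1794) in *Htt*+/+ mice. For *Adcy5*, 8 of 11 *Htt* Q111/+ libraries were below the lowest *Htt*+/+ library, with a log2 fold change of −0.19 (SE 0.046, adjusted p = 0.138).

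Members of the list past the nominal threshold included 4 genes for phosphodiesterases, which break down cyclic nucleotides, namely *Pde10a* at −0.20 (nominal p = 8.28e-04), *Pde1b* at −0.17 (nominal p = 0.00136), *Pde2a* at −0.12 (nominal p = 0.00474) and *Pde7b* at −0.12 (nominal p = 0.0101). *Pde10a* is uncertain because it overlaps a gene on the other strand, and it was at 0.04 in females and 0.05 in series A. *Prkar2b*, a regulatory subunit of protein kinase A, was at −0.10 (nominal p = 3.99e-04), although its CPM ranges in the groups were nearly the same, 182 to 232 and 181 to 240. *Rgs9*, which shortens dopamine and opioid receptor signals, had 615 to 903 CPM in *Htt* Q111/+ and 786 to 980 CPM in *Htt*+/+ mice. It had a log2 fold change of −0.14 (nominal p = 0.00188), with 7 of 11 libraries below the *Htt*+/+ range. *Arpp21* (−0.18, nominal p = 0.00165) and *Arpp19* (−0.17, nominal p = 0.0279), which encode further cyclic AMP-regulated phosphoproteins, and *Ppp3ca*, the calcineurin subunit that dephosphorylates DARPP-32 (−0.09, nominal p = 0.0233), completed the 11. Members that couple the receptors to the cyclase, *Gnal* (−0.04, nominal p = 0.219) and *Gng7* (−0.04, nominal p = 0.181), did not pass, nor did the striatum-enriched phosphatase gene *Ptpn5* (−0.00, nominal p = 0.927).

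Direct-pathway genes were tested next. Of 10, 2 passed the nominal threshold (20%, against 7.52% of all genes), both down-regulated, and the median was −0.03. *Chrm4*, the muscarinic M4 receptor gene, had 49.1 to 73.0 CPM (median 60.4) in *Htt* Q111/+ and 65.0 to 77.2 CPM (median 70.7) in *Htt*+/+ *Hdac2* KO striata, with 6 of 11 libraries below the *Htt*+/+ range. Its log2 fold change was −0.18 (SE 0.043, adjusted p = 0.141, quasi-likelihood test of edgeR, Benjamini-Hochberg-adjusted). The D1 receptor gene *Drd1a* was at −0.12 (nominal p = 0.00379), prodynorphin (*Pdyn*) at −0.15 (nominal p = 0.0904) and the substance P precursor *Tac1* at 0.05 (nominal p = 0.154). In females *Drd1a* was at 0.10. Without *Htt*+/+ replicate 3, 4 direct-pathway genes passed downward and 1 upward, and with surrogate variables estimated anew in the 20 *Hdac2* KO libraries the same counts were found. The list median was 0.05 without surrogate variables and 0.02 without *Htt*+/+ replicate 1.

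Of 20 MSN transcription factors tested, 4 passed the nominal threshold (20%, against 7.52% of all genes), all down-regulated, with a median of −0.02. These were *Bcl11b* at −0.11 (nominal p = 0.0175), *Mef2c* at −0.08 (nominal p = 0.0375), *Meis2* at −0.06 (nominal p = 0.0395) and *Foxp2* at −0.05 (nominal p = 0.0470). In females *Foxp2* was at 0.25 and *Mef2c* at 0.14. The down count was 0 without surrogate variables and with extraction date in their place, and 1 with sex, with ID series or in the 20 *Hdac2* KO libraries fitted alone with surrogate variables. It was 1 without *Htt* Q111/+ replicate 2, 5, 6 or 8 or *Htt*+/+ replicate 3, and 2 without *Htt* Q111/+ replicate 9 or 10 or *Htt*+/+ replicate 1, where 1 gene passed upward. Among 25 other striatum-enriched genes, 3 passed the nominal threshold (12%, against 7.52% of all genes), all down-regulated, with a median of −0.07. The sodium channel subunit gene *Scn4b* was at −0.22 (nominal p = 0.00949), and the potassium channel genes *Kcnab1* and *Kcnj4* were at −0.15 (nominal p = 0.00745) and −0.10 (nominal p = 0.0462). That down count was 7 without surrogate variables and 7 in males, 6 without *Htt* Q111/+ replicate 1 or *Htt*+/+ replicate 9 and 5 without *Htt* Q111/+ replicate 7 or *Htt*+/+ replicate 7. Upward, 1 of these striatum-enriched genes passed without surrogate variables and with sex or ID series in their place.

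Summed over 11 MSN marker genes, *Htt* Q111/+ *Hdac2* KO libraries held 7003 to 8698 CPM (median 7783) and *Htt*+/+ *Hdac2* KO libraries 7948 to 9421 CPM (median 8827). Of these markers 8 passed the nominal threshold (72.7%, against 7.52% of all genes), all down-regulated, and the median log2 fold change was −0.14. All 8 were already counted in the lists above, so they add no further gene. *Ppp1r1b* was the most abundant of them, and none of the 11 was near 0 in all libraries. In bulk striatum, fewer MSNs and less RNA of these genes per MSN cannot be told apart.

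Within the *Htt* Q111/+ *Hdac2* KO group, some MSN genes differed between the ID series. The 5 mice of series V had 131 to 144 CAG repeats, and the 6 mice of series A and Z had 110 to 118. *Penk* was at 1139 to 1302 CPM in the 5 V libraries and at 1520 to 1729 CPM in the 6 others, with no overlap. In *Htt*+/+ *Hdac2* KO mice the V libraries, at 1796 to 1995 CPM, lay inside the range of the other series, 1660 to 2000 CPM. *Rgs9* showed the same arrangement, with 615 to 736 CPM in the V libraries and 757 to 903 CPM in the others of the *Htt* Q111/+ group, and 786 to 980 against 813 to 956 CPM in the *Htt*+/+ group. *Adcy5* differed by series with overlap, from 1241 to 1495 CPM (median 1436) in V and from 1443 to 1731 CPM (median 1661) in A and Z. For *Ppp1r1b* the medians were 1511 and 1648 CPM. Expressed as log2 ratios of *Htt* Q111/+ over *Htt*+/+ means within a series, *Penk* was at −0.59 in V, −0.33 in A and −0.20 in Z, *Adcy5* at −0.41, −0.12 and −0.11, and *Ppp1r1b* at −0.31, −0.10 and −0.17. Across all genes tested, the V libraries of the *Htt* Q111/+ *Hdac2* KO group lay below all A and Z libraries for 280 of 17110 genes (1.64%) and above them for 231 (1.35%), and in the *Htt*+/+ *Hdac2* KO group below for 525 (3.07%) and above for 3.07%. Among the 30 cyclic AMP and DARPP-32 genes, 4 lay below and 1 above in the *Htt* Q111/+ group, and 0 in either direction in the *Htt*+/+ group. In the *Htt* Q111/+ group 1 of 7 indirect-pathway genes lay below, 1 of 10 direct-pathway genes above and 0 of 20 transcription factors in either direction, while 3 of 10 oligodendrocyte markers lay below. In the *Htt*+/+ group 1 direct-pathway gene lay above, 1 transcription factor and 1 oligodendrocyte marker below, and 0 indirect-pathway genes in either direction. All 5 V mice of the *Htt* Q111/+ group were male, and the 3 males of A and Z also lay above them, with *Penk* at 1520 to 1621 CPM and *Htt* at 178 to 180 CPM. Repeat length and ID series cannot be told apart here, and their part in the differences between series was not tested. The same split was present in *Hdac2* WT striata for *Penk*, where 3 *Htt* Q111/+ V libraries had 994 to 1117 CPM and 4 others had 1170 to 1674 CPM.

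*Htt* itself (ENSMUSG00000029104, chromosome 5, 34761740 to 34912534) ranged from 120 to 184 CPM (median 171) in *Htt* Q111/+ *Hdac2* KO and from 173 to 204 CPM (median 188) in *Htt*+/+ *Hdac2* KO striata. Of 11 *Htt* Q111/+ libraries, 6 lay below the *Htt*+/+ minimum, and replicate 4 stood apart from the others at 120 CPM. The log2 fold change of *Htt* was −0.13 (SE 0.030, adjusted p = 0.130, quasi-likelihood test of edgeR, Benjamini-Hochberg-adjusted), and −0.05 in *Hdac2* WT striata (adjusted p = 0.711). The difference between backgrounds was −0.08 (nominal p = 0.110, adjusted p = 0.887). By series, the *Htt* Q111/+ *Hdac2* KO libraries had 120 to 162 CPM in V and 171 to 184 CPM in A and Z, without overlap, whereas *Htt*+/+ *Hdac2* KO libraries had 188 to 197 and 173 to 204 CPM. *Htt* Q111/+ *Hdac2* WT libraries did not show this split, with 184 to 190 CPM in V and 182 to 189 CPM in the others. The knock-in allele holds human exon 1 sequence, and how its reads align to the mouse reference was not tested.

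The mouse coding sequence at the site of the knock-in is shown because the repeat defines the groups. In exon 1 of the GENCODE vM21 transcript of *Htt* on GRCm38, plus strand, chr5:34761913-34762023, capitals mark the reference glutamine tract of 7 codons (6 CAG and 1 CAA), which lies at 34761958 to 34761978. The *Htt* Q111 allele has human exon 1 sequence with the expanded repeat at this site.
Htt: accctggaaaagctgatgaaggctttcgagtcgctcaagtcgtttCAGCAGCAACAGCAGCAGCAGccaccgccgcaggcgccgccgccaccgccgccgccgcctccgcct

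Near *Htt*, 120 genes with a start within 5 Mb were tested. Of these, 3 up-regulated and 4 down-regulated genes passed the nominal threshold (5.83%, against 7.52% of all genes). The median log2 fold change over the 120 was 0.00. *Wfs1*, which encodes the endoplasmic reticulum protein wolframin, was at −0.24 (nominal p = 4.92e-04) and *Ywhah*, a 14-3-3 protein gene, at −0.12 (nominal p = 6.50e-04). Up-regulated were *Fndc4* at 0.08 (nominal p = 0.00185) and *Slc4a1ap* at 0.10 (nominal p = 0.00344), the latter uncertain because it overlaps *Supt7l*. With extraction date in place of surrogate variables 1 gene passed in each direction. The up count was 5 without *Htt* Q111/+ replicate 3 or *Htt*+/+ replicate 8 and 6 without *Htt*+/+ replicate 1. The down count was 7 without *Htt* Q111/+ replicate 10 or 11 or *Htt*+/+ replicate 1 or 8.

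Activity-dependent genes were described because MSN activity sets their level. Of 22 immediate-early genes tested, 2 passed the nominal threshold (9.09%, against 7.52% of all genes), both down-regulated, with a median of −0.06. The down count was 7 in males and 1 without surrogate variables, where the median was 0.05. *Jun*, a subunit of the AP-1 transcription factor, had 15.6 to 21.5 CPM (median 18.2) in *Htt* Q111/+ and 19.8 to 26.5 CPM (median 21.7) in *Htt*+/+ *Hdac2* KO striata, and 9 of 11 libraries lay below the *Htt*+/+ range. Its log2 fold change was −0.24 (nominal p = 0.00352, adjusted p = 0.324, quasi-likelihood test of edgeR, Benjamini-Hochberg-adjusted), and *Jun* is uncertain because it overlaps a gene on the other strand. *Homer1*, a postsynaptic scaffold with an activity-induced short form, was at −0.22 (nominal p = 3.53e-04), but its ranges of 195 to 486 and 274 to 479 CPM overlapped widely. *Homer1* was at −0.42 in males and 0.40 in females, so the direction held in 1 sex. *Fos* (−0.16, nominal p = 0.514), *Npas4* (−0.23, nominal p = 0.349) and *Arc* (0.04, nominal p = 0.825) did not pass. Without *Htt*+/+ replicate 1, 3 immediate-early genes passed upward and the median was 0.10.

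Genes with higher expression in *Htt* Q111/+ *Hdac2* KO striata were led by *Cdk14*, which encodes a cyclin-dependent kinase. *Cdk14* ranged from 54.0 to 70.4 CPM (median 62.4) in *Htt* Q111/+ and from 32.7 to 68.6 CPM (median 56.5) in *Htt*+/+ mice, with 1 *Htt* Q111/+ library above the *Htt*+/+ range. The *Htt*+/+ libraries were the more spread, and the log2 fold change was 0.44 (SE 0.083, adjusted p = 0.0506, quasi-likelihood test of edgeR, Benjamini-Hochberg-adjusted). Within dates, *Cdk14* was at −0.04, 0.47 and 0.88 on 26 May, 31 May and 3 June, and at 0.95, −0.05 and 0.33 in series A, V and Z. Others of the 12 up-regulated genes with the lowest p were *Pcsk1*, a convertase that cleaves prohormones, at 0.38 (adjusted p = 0.130), *Scg5*, the chaperone of a related convertase, at 0.14 (adjusted p = 0.114), and *Ecel1*, a neuronal endopeptidase-like gene, at 0.15 (adjusted p = 0.136). *Scg5* had 161 to 203 CPM in *Htt* Q111/+ and 133 to 174 CPM in *Htt*+/+ mice, with 5 of 11 libraries above the *Htt*+/+ range. *Kcng1*, a modulatory potassium channel subunit, was at 0.30 (adjusted p = 0.130), *Dgcr8*, which acts in microRNA processing, at 0.13 (adjusted p = 0.114), and *Xrcc5*, a subunit of the Ku complex of DNA repair, at 0.14 (adjusted p = 0.155). *Kcng1* was the reverse of *Penk* by series in the *Htt* Q111/+ *Hdac2* KO group, with 64.2 to 82.0 CPM in V and 49.6 to 63.4 CPM in A and Z.

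Of the 12 down-regulated genes with the lowest p, those not yet described include *Ptplb*, which acts in the synthesis of very long-chain fatty acids. *Ptplb* had 38.3 to 72.5 CPM (median 59.9) in *Htt* Q111/+ and 60.0 to 89.4 CPM (median 77.3) in *Htt*+/+ *Hdac2* KO striata, with 6 of 11 libraries below the *Htt*+/+ range. Its log2 fold change was −0.34 (SE 0.066, adjusted p = 0.0554, quasi-likelihood test of edgeR, Benjamini-Hochberg-adjusted), against −0.00 in *Hdac2* WT striata, a difference of −0.33 (nominal p = 0.00457, adjusted p = 0.681). *Baiap2*, which shapes dendritic spines through the actin cytoskeleton, was at −0.14 (adjusted p = 0.0554), with 7 of 11 libraries below the *Htt*+/+ range, and at the same −0.14 in *Hdac2* WT striata (adjusted p = 0.0474). *Cntnap3*, a cell adhesion molecule, was at −0.37 (adjusted p = 0.114), *Sez6*, a membrane protein of dendrites, at −0.16 (adjusted p = 0.121), and *Plce1*, a phospholipase C, at −0.22 (adjusted p = 0.114). The value of −3.56 for the pseudogene *Rps2-ps13* is uncertain, since libraries of both *Hdac2* KO groups lay at either a low or a high level. These levels were 0.887 to 2.22 and 52.8 to 65.7 CPM in *Htt* Q111/+ *Hdac2* KO striata. In *Htt*+/+ *Hdac2* KO striata they were 0.938 to 1.61 and 54.6 to 58.2 CPM. *Hdac2* WT libraries were split in the same way. The cause of the split, and whether *Rps2* reads entered the count, was not tested.

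How this profile related to that of intact *Hdac2* was examined next. In *Hdac2* WT striata the allele changed 69 of 17133 genes past the adjusted threshold (0.403%), 31 up-regulated (0.181%) and 38 down-regulated (0.222%). The nominal one was passed by 1859 (10.9%), with 916 (5.35%) and 943 (5.5%) in those directions. The groups were fully separated by 25 genes (0.146%), 13 higher (0.0759%) and 12 lower (0.07%) in *Htt* Q111/+ libraries. The count of 69 depended on the fit of all libraries together, since the 15 *Hdac2* WT libraries fitted alone with surrogate variables gave 0 genes past the adjusted threshold of edgeR and 1647 past the nominal one, and the 20 *Hdac2* KO libraries alone gave 3 and 1235. Of the 69 genes, 67 had the same direction in *Hdac2* KO mice (97.1%), 37 of these with a nominal p under 0.05, and 1 gene passed it in the opposite direction. All 69 had smaller changes in *Hdac2* KO mice, with a median of 0.12 in the direction of the WT change, against 0.33 in the WT background where they were selected. Genes chosen on a large estimate are on average smaller in other mice, so this is no test of a difference. In the reverse selection, 931 of 1272 genes past the nominal threshold in *Hdac2* KO had the same direction in *Hdac2* WT mice (73.2%), against 58.6% of all 16897 genes tested in both. The shares were 73.2% and 56.5% when each background was fitted on its own libraries. With intact *Hdac2*, 15 of 30 cyclic AMP and DARPP-32 genes passed the nominal threshold downward and 1 upward (list median −0.11). Down counts, with list medians, were 5 of 7 indirect-pathway (−0.32), 2 of 10 direct-pathway (−0.07), 14 of 25 other striatum-enriched (−0.14) and 6 of 22 immediate-early genes (−0.24). Of 20 MSN transcription factors, 6 passed in each direction (−0.03).

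**Figure D2:**
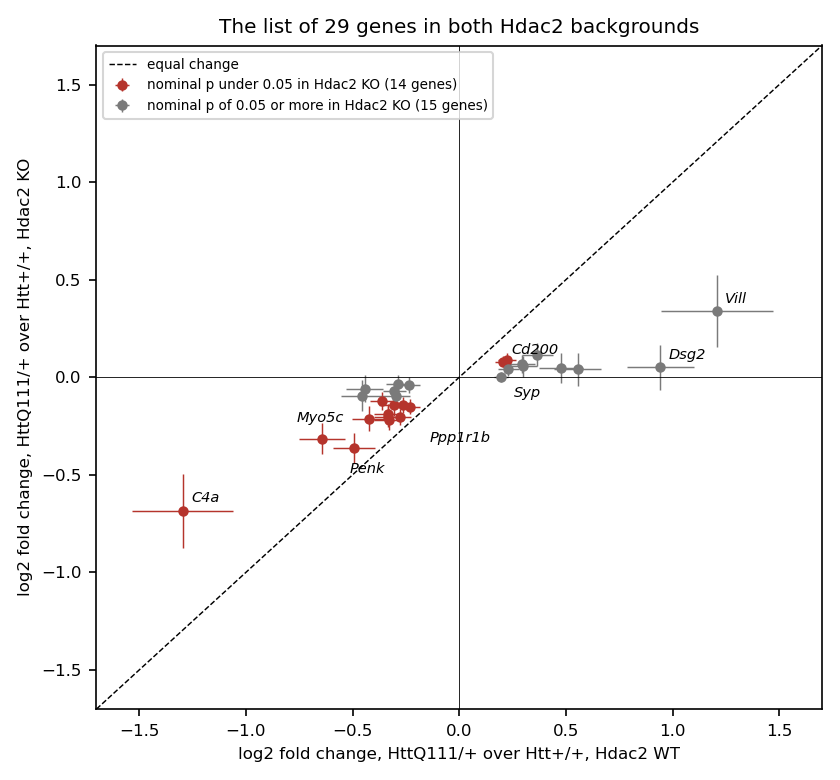
Log2 fold change (*Htt* Q111/+ over *Htt*+/+) ± standard error of the study's 29 genes in *Hdac2* WT (x axis) and *Hdac2* KO (y axis) striata. All 29 points had the same sign on both axes and lay nearer to 0 on the y axis.

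The study's list of 29 *Htt* Q111 genes was chosen on the *Hdac2* WT libraries together with a separate published *Htt* Q111 data set, so its size and direction there are no independent evidence. In *Hdac2* KO mice all 29 kept that direction, and 14 passed the nominal threshold (48.3%, against 7.52% of all genes), 2 up-regulated and 12 down-regulated. The median absolute log2 fold change was 0.33 in *Hdac2* WT and 0.10 in *Hdac2* KO mice, and all 29 were smaller. With each background fitted alone, 28 of 29 were smaller and the medians were 0.28 and 0.10. In *Hdac2* KO, 0 of the 29 passed the adjusted threshold with edgeR, 1 did in the libraries of that background alone, and 4 did with DESeq2's Wald test. *Penk*, *Ppp1r1b*, *Pde10a*, *Rgs9*, *Gpr6* and *Homer1*, described above, were among the 14. *Myo5c*, a motor protein gene, was at −0.31 (nominal p = 4.85e-04), *Ppp4r4*, a phosphatase subunit gene, at −0.15 (nominal p = 8.22e-04) and *Gpd1*, which links glycolysis to lipid synthesis, at −0.12 (nominal p = 0.0157). *C4a*, a complement gene, was at −0.68 (nominal p = 0.00109). It is uncertain because it is nearly identical to *C4b*, and *Htt*+/+ replicate 1, of series A, had 21.2 CPM where the other 8 had 5.03 to 8.02 CPM. The *Htt*+/+ *Hdac2* WT libraries of series A, replicates 1 and 2, were also high, at 18.8 and 22.7 CPM. Series A *Htt* Q111/+ libraries had 4.35 to 5.68 CPM in *Hdac2* KO and 5.07 and 5.21 CPM in *Hdac2* WT mice. High series A controls thus entered the change of *C4a* in both backgrounds. Up-regulated were *Cd200*, a neuronal ligand that restrains microglia, at 0.08 (nominal p = 0.00832) and *Lrrtm4*, a synapse-organizing protein gene, at 0.09 (nominal p = 0.0165). The up count was 4 without *Htt* Q111/+ replicate 1 and 1 without *Htt* Q111/+ replicate 7 or *Htt*+/+ replicate 3, and the down count stayed between 11 and 13 for every library left out.

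The difference between the backgrounds was tested directly as an interaction. Loss of *Hdac2*, Cre and extraction date differ together between the backgrounds, and their parts in it were not tested. Of 17346 genes, 976 passed the nominal threshold (5.63%), 433 with a positive (2.5%) and 543 with a negative difference (3.13%), and 1 passed the adjusted threshold (0.00577%). This was *Fibcd1*, which encodes a chitin-binding membrane receptor, with a difference of 0.43 (SE 0.069, adjusted p = 0.0152, quasi-likelihood test of edgeR, Benjamini-Hochberg-adjusted). It had 9.84 to 14.5 CPM (median 11.9) in *Htt* Q111/+ and 9.76 to 14.3 CPM (median 11.5) in *Htt*+/+ *Hdac2* KO striata, with a log2 fold change of 0.10 (nominal p = 0.0380, adjusted p = 0.639). The call for *Fibcd1* ended without surrogate variables (difference 0.30, adjusted p = 0.738) and with sex and ID series in their place (0.38, adjusted p = 0.281), and it held with DESeq2's Wald test (0.43, adjusted p = 7.51e-05). In *Hdac2* WT striata *Fibcd1* had 13.7 to 21.5 CPM (median 15.8) and 16.6 to 26.0 CPM (median 18.5), a log2 fold change of −0.33 (adjusted p = 0.00413). *Dsg2*, a desmosomal cadherin gene, had the second lowest p for a named gene, at 0.05 in *Hdac2* KO (nominal p = 0.662) and 0.94 in *Hdac2* WT mice (adjusted p = 0.00413), a difference of −0.89 (nominal p = 4.69e-05, adjusted p = 0.406). For *Syp*, the synaptic vesicle protein synaptophysin, the values were 0.00 and 0.20, with a difference of −0.19 (nominal p = 7.48e-05, adjusted p = 0.432). *Mef2c* was at −0.08 in *Hdac2* KO and 0.16 in *Hdac2* WT mice, a difference of −0.25 (nominal p = 2.35e-04, adjusted p = 0.470). By contrast the differences of *Penk* (0.13, nominal p = 0.288), *Ppp1r1b* (0.08, nominal p = 0.246) and *Adcy5* (0.03, nominal p = 0.713) did not pass, which does not show that the effects were equal.

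Outside the MSN lists, 40 extracellular matrix genes were tested, and 5 passed the nominal threshold (12.5%, against 7.52% of all genes), all up-regulated, and the median was 0.04. *Lum*, a collagen-binding proteoglycan gene, was at 0.60 (nominal p = 0.00169), from 0.747 to 1.53 CPM in *Htt* Q111/+ and from 0.463 to 1.49 CPM in *Htt*+/+ mice. *Dcn*, a related proteoglycan gene, was at 0.27 (nominal p = 0.0141), *Postn*, which encodes periostin, at 0.24 (nominal p = 0.00503), and *Col1a2*, a chain of type I collagen, at 0.20 (nominal p = 0.0178). The direction of the matrix list depended on the model, with 1 gene up, 1 down and a median of −0.05 without surrogate variables, and 1 up with sex or extraction date in their place. The up count was 3 without *Htt* Q111/+ replicate 5 or 10, and the median was −0.03 without *Htt*+/+ replicate 1. *Lum* and *Dcn* also belong to the meningeal fibroblast markers. Of 7 tested, 3 passed the nominal threshold (42.9%, against 7.52% of all genes), all up-regulated. The median over the 7 was 0.20, and it was 0.13 without *Htt* Q111/+ replicate 5 and 0.07 without *Htt*+/+ replicate 1. Of these markers 1 passed without *Htt* Q111/+ replicate 5, and 0 passed without surrogate variables (median 0.06) or with extraction date (median 0.17). The summed level of those markers was 25.8 to 48.4 CPM (median 39.4) in *Htt* Q111/+ and 27.4 to 49.3 CPM (median 36.9) in *Htt*+/+ libraries, with *Igf2* the most abundant, and their part in the matrix result was not tested.

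In the cholesterol synthesis list, 4 of 21 genes tested passed the nominal threshold (19%, against 7.52% of all genes), all down-regulated. The list median was −0.06, with 17 negative values, and it was −0.03 without *Htt*+/+ replicate 8. The count was 2 with extraction date or ID series in place of surrogate variables, and 1 in the 20 *Hdac2* KO libraries alone without surrogate variables or with sex and ID series. Among them were the enzyme genes *Dhcr7* at −0.14 (nominal p = 0.0141), *Hmgcs1* at −0.11 (nominal p = 0.0119) and *Sqle* at −0.10 (nominal p = 0.0269). The values of *Dhcr7*, *Hmgcs1* and *Sqle* in *Hdac2* WT striata were 0.03, −0.02 and 0.01, and the median of the list there was 0.03. The differences between backgrounds were −0.17 for *Dhcr7* (nominal p = 0.0489, adjusted p = 0.882), −0.11 for *Sqle* (nominal p = 0.117) and −0.09 for *Hmgcs1* (nominal p = 0.180).

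**Figure D3:**
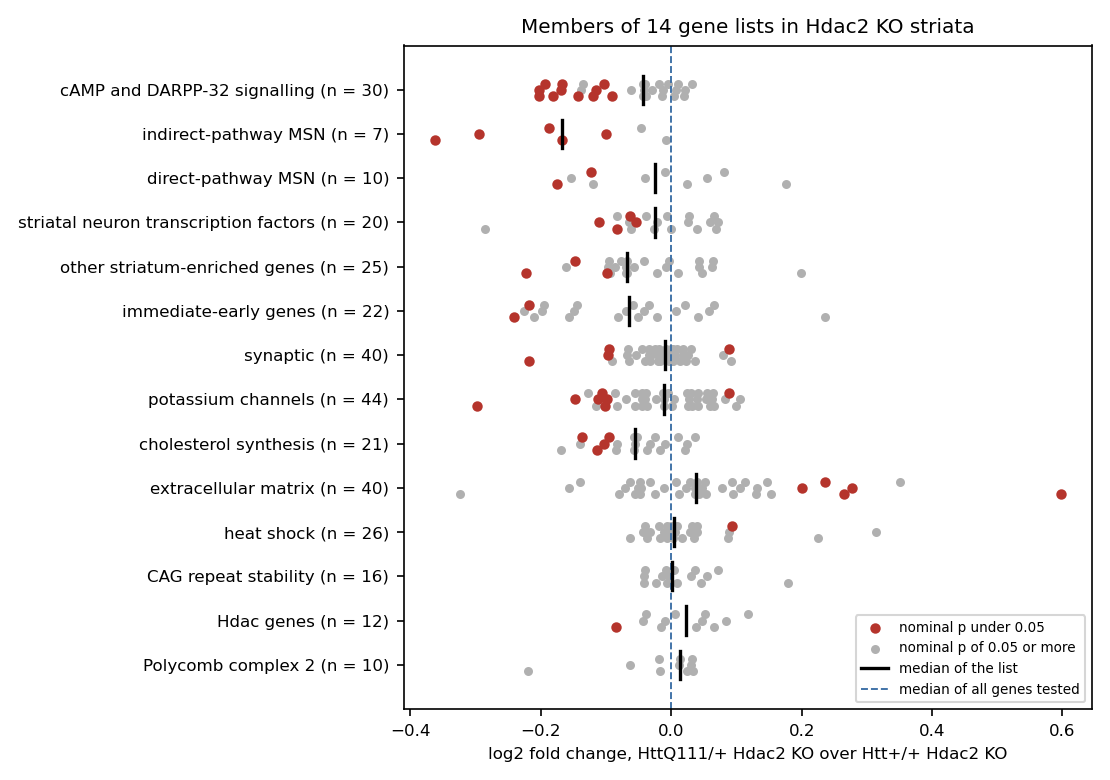
Log2 fold change (*Htt* Q111/+ over *Htt*+/+, *Hdac2* KO striata) of each tested member of 14 gene lists, red where the nominal p was under 0.05, with a black tick for the list median and a dashed line for the median of all genes. Red points of the cyclic AMP and DARPP-32 list (11 of 30) and of the indirect-pathway list (5 of 7) all lay below 0.

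Of 40 synaptic genes, 1 was up-regulated and 3 were down-regulated at the nominal threshold (10%, against 7.52% of all genes), with a median of −0.01. Besides *Homer1* and *Lrrtm4* these were the postsynaptic scaffold genes *Dlgap2* at −0.10 (nominal p = 0.0206) and *Shank3* at −0.10 (nominal p = 0.0442). *Dlgap2* was at 0.13 in females and 0.08 in series A, and *Shank3* at 0.09 on 3 June and 0.13 in series A. The up count was 2 without *Htt* Q111/+ replicate 2, 4, 5 or 6 or *Htt*+/+ replicate 1, 4, 5 or 6 and 0 without *Htt* Q111/+ replicate 7 or 11 or *Htt*+/+ replicate 3. The down count was 0 with extraction date and 6 without surrogate variables, 1 without *Htt* Q111/+ replicate 6 or 8 and 7 without *Htt*+/+ replicate 1. Among 44 potassium channel genes, 1 was up-regulated and 6 were down-regulated (15.9%, against 7.52% of all genes), with a median of −0.01. The highest log2 fold change in this list was 0.105, and the list did not hold *Kcng1*, which was described above with a larger positive value. *Kcnh3* was at −0.10 (nominal p = 0.0111) and *Kcnd3* at −0.11 (nominal p = 0.0176), the latter uncertain because of a gene on the other strand. The down count was 3 with extraction date, 3 without *Htt* Q111/+ replicate 5 or 10 or *Htt*+/+ replicate 3 and 2 without *Htt* Q111/+ replicate 8. The single up-regulated gene did not pass without surrogate variables, with sex, extraction date or ID series in their place, in males or in the libraries of shared dates. It was also lost without *Htt* Q111/+ replicate 1, 3, 5, 7 or 11 or *Htt*+/+ replicate 2, 3, 6, 7, 8 or 9.

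Other lists had few members past the nominal threshold, which 7.52% of all genes passed. Of 26 heat shock genes, 1 passed the nominal threshold (3.85%), *Hspa2* at 0.09 (nominal p = 0.0158), and the count was 0 without *Htt*+/+ replicate 1 and 2 without surrogate variables and without *Htt* Q111/+ replicate 3, 4, 9 or 11 or *Htt*+/+ replicate 6 or 8. Of 16 genes tied to CAG repeat stability, 0 passed the nominal threshold with edgeR and 0 with DESeq2, with a median of 0.00, and 1 passed upward without *Htt*+/+ replicate 1, without surrogate variables (median 0.07) and with extraction date. The mismatch repair genes *Msh3* and *Mlh3* were at −0.01 and −0.04, with nominal p values of 0.730 and 0.132. Of 12 *Hdac* identifiers 1 passed the nominal threshold (8.33%), *Hdac11* at −0.08 (nominal p = 0.0170), which did not pass without *Htt* Q111/+ replicate 8, with extraction date, in the libraries of shared dates or in the 20 *Hdac2* KO libraries with sex and ID series. Without surrogate variables, or without *Htt* Q111/+ replicate 4 or 7 or *Htt*+/+ replicate 1 or 3, 1 *Hdac* gene passed in each direction. Of 10 genes of Polycomb repressive complex 2, 0 passed the nominal threshold with either tool, with a median of 0.01, and its catalytic subunit gene *Ezh2* was at 0.03 (nominal p = 0.602).

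Markers of other cell types were checked in the same libraries. Oligodendrocyte markers were negative in all 10 cases, with 4 past the nominal threshold (40%, against 7.52% of all genes) and a median of −0.10. Their summed level was 5921 to 8999 CPM (median 7736) in *Htt* Q111/+ and 6817 to 10920 CPM (median 7741) in *Htt*+/+ libraries, with *Htt*+/+ replicate 1 the highest. Without that library 0 passed and the median was 0.01, and 0 passed without surrogate variables (median −0.05) or with sex or ID series. The count was 1 or 2 without *Htt* Q111/+ replicate 3, 5, 6, 7, 8, 10 or 11 or *Htt*+/+ replicate 7 or 9. Among 10 microglial markers 1 passed, *C1qc* at −0.08 (nominal p = 0.0456), and their sum was 595 to 761 CPM (median 667) in *Htt* Q111/+ and 674 to 793 CPM (median 716) in *Htt*+/+ libraries. The microglial count was 6 without surrogate variables (median −0.12), 5 with sex and 0 in males. *C1qc* did not pass without *Htt* Q111/+ replicate 3, 4, 8, 9 or 11 or *Htt*+/+ replicate 2, 3, 8 or 9, and the microglial count was 2 or 3 without *Htt* Q111/+ replicate 10 or *Htt*+/+ replicate 4, 5 or 6. Astrocyte (9 tested), endothelial (8) and oligodendrocyte precursor (5) markers had 0 past the nominal threshold with edgeR and 0 with DESeq2. Without surrogate variables 1 astrocyte and 1 endothelial marker passed downward. Upward, 1 passed without *Htt*+/+ replicate 1 (astrocyte, with 1 downward), without *Htt* Q111/+ replicate 7 or 9 or *Htt*+/+ replicate 5 (endothelial) and without *Htt* Q111/+ replicate 3 (precursor). Of 9 interneuron markers 2 were up-regulated, both of cholinergic cells, *Slc5a7* at 0.13 (nominal p = 0.00801) and *Chat* at 0.10 (nominal p = 0.0314), and 0 passed upward without surrogate variables. The up count was 0 without *Htt*+/+ replicate 1 and 1 without *Htt* Q111/+ replicate 2, 4, 5, 6, 8 or 10 or *Htt*+/+ replicate 9, and 1 interneuron marker passed downward without *Htt* Q111/+ replicate 1 or 10 or *Htt*+/+ replicate 1 or 4. Of 6 mural markers 1 passed, *Kcnj8* at 0.18 (nominal p = 0.0492), and of 3 ependymal markers 1, *Foxj1* at 0.29 (nominal p = 0.0118). The mural up count was 0 without surrogate variables, where 1 passed downward, 0 without *Htt* Q111/+ replicate 1, 2, 5, 8, 9 or 10 or *Htt*+/+ replicate 1, 3 or 8 and 2 without *Htt* Q111/+ replicate 4 or 7 or *Htt*+/+ replicate 5, and 1 mural marker passed downward without *Htt* Q111/+ replicate 10 or *Htt*+/+ replicate 1. The ependymal count was 0 with extraction date, 2 without surrogate variables and 2 without *Htt* Q111/+ replicate 3, 4, 5, 7 or 9 or *Htt*+/+ replicate 5 or 9. Cortical and choroid plexus markers had 0 of 9 and 0 of 5 past the nominal threshold, with DESeq2 as well. With extraction date 2 choroid plexus markers passed upward, and downward 1 cortical marker passed without *Htt* Q111/+ replicate 8 or 11 and 1 choroid plexus marker without *Htt* Q111/+ replicate 6 or *Htt*+/+ replicate 1. Their sums marked single libraries, with cortical sums of 182 and 220 CPM in *Htt*+/+ replicates 2 and 6, where the other 18 lay between 46.8 and 91.9 CPM, and a choroid plexus sum of 152 CPM in *Htt* Q111/+ replicate 1. The part of other cell types in the MSN result was not tested.

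Promoters of the MSN lists were searched because these cells signal through cyclic AMP. The full cyclic AMP response element, TGACGTCA, was present on either strand in 588 of 32851 promoters of 300 bases (1.79%), in 1 of 67 promoters available for 91 tested members of the 5 MSN lists (1.49%), and in 1 of 20 promoters available for the 25 members down-regulated at the nominal threshold (5.0%). Its shorter form TGACG, which TGACGTCA contains, was in 6837 of all promoters (20.8%), in 15 of the 67 (22.4%) and in 2 of the 20 (10.0%). The promoter with the full element was that of *Gpr6*, shown from RefSeq on GRCm38.p6, minus strand, chr10:41072241-41072540, with the element in capitals 78 bases before the start of transcription.
Gpr6: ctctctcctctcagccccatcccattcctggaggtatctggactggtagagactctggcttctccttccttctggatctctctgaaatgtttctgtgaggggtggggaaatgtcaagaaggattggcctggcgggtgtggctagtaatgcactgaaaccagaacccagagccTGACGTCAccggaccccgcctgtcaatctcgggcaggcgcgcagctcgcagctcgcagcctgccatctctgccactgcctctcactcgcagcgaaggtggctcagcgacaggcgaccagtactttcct

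Extraction date, ID series and sex were unevenly spread over the groups. The mice of series V carried the longest repeats, so repeat length and series cannot be told apart. Of all genes tested 1 passed the adjusted threshold, and its call ended without any of 10 single libraries. The gene lists rest on the nominal threshold, several of their counts changed with the model, and they were described by counts and medians, since the comparison was chosen with earlier results of the data known. Named genes with the opposite sign within at least 1 date, series or sex included *Bcl11b*, *Meis2*, *Kcnab1*, *Baiap2*, *Kcnh3*, *Kcnd3*, *Postn* and *Col1a2*. They also included *Ppp4r4*, *Sqle*, *C4a*, *Slc5a7*, *Chat*, *Foxj1*, *Htt*, *Hdac1*, *Tcap*, *Prkar2b*, *Kcng1*, *Ecel1*, *Hdac11*, *C1qc*, *Fibcd1*, *Pcsk1* and *Fndc4*. Whole-gene counts do not resolve exons, strands or the knock-in allele. Bulk striatum gives no level per cell type.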

How the data were processed

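RNA from striata was measured by stranded mRNA sequencing, and 35 libraries remained after the authors excluded a male *Htt*+/+ *Hdac2* WT outlier. The authors aligned the reads to GRCm38 with GSNAP and deposited raw counts, which bedtools took from uniquely aligned reads across the full interval of each Ensembl gene. Of 39109 entries, 92 ERCC spike-ins, 6152 genes of at most 250 nt and 2 rRNA genes of mitochondria were removed. Genes were tested if each library of 1 or more of the groups compared held 6 or more counts. Counts were scaled by TMM and fitted in R 4.3.3 with edgeR 4.0.16 (older quasi-likelihood form) and 9 surrogate variables from sva 3.50.0, with thresholds of 0.05. limma 3.58.1 and DESeq2 1.42.0 served alternatives, which covered covariates, libraries, scaling, test and filters. The procedure was also run on simulated counts, and no result given here rests on that run.

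Named genes were those past the adjusted threshold for the allele or the interaction, the 12 with the lowest p in each direction, *Htt*, *Hdac1*, *Hdac2*, the study's 29 genes and up to 4 members with the lowest p of each list. Other list members were named after their values were seen. The comparison and its lists (MSN signalling, pathways, transcription factors and other enriched genes, immediate-early, matrix, synaptic, potassium channel, cholesterol, heat shock, repeat stability, *Hdac*, Polycomb, cell type markers, neighbours of *Htt* and *Ppp1r1b*) were chosen with earlier results of these data known.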

Additional observations from a re-analysis of the deposited data

Results flagged for a closer look

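In 151 genes examined, 18 had 1 *Htt*+/+ *Hdac2* KO library far from the other 8, where chance gives about 5 per 100 groups. In replicate 1, oligodendrocyte genes were high (*Opalin* 60.6 CPM, others 27.0 to 41.5, *Cnp* 741, *Cldn11* 297 and *Mog* 164 CPM), as were *C4a* (21.2 CPM) and *Eed* (16.7 CPM), while *Myo18a* (181 CPM, others 203 to 219) and *Nos1* (29.9 CPM, others 40.0 to 49.0) were low. Replicate 8 was high in *Jun* (26.5 CPM), *Hmgcs1* (248 CPM), *Hspa2* (29.2 CPM) and *Hspa8* (562 CPM, others 395 to 474), and replicate 9 in *Sbsn* (28.3 CPM), *Ptprv* (36.7 CPM), *Gjb6* (53.6 CPM) and *Ly6c1* (58.3 CPM). Replicate 4 was high in *Sfxn1* (166 CPM) and replicate 5 in *Pdgfrb* (38.0 CPM). The *Htt* Q111/+ *Hdac2* KO group, with 11 libraries, was too large for this check.

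*Fibcd1* differed between the *Hdac2* backgrounds, with an interaction of 0.43 on the log2 scale (adjusted p = 0.0152, quasi-likelihood test of edgeR, Benjamini-Hochberg-adjusted). Its adjusted p was 0.738 without surrogate variables and 0.281 with sex and ID series in their place.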

How the results depend on the processing

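The number of genes past the adjusted threshold (1 as reported) was 0 with extraction date, in the libraries of shared dates and in males, 2 with ID series and in the 20 *Hdac2* KO libraries without surrogate variables, 3 in those 20 with surrogate variables anew, with DESeq2 size factors, with filterByExpr and with short genes kept, 4 with upper quartile scaling and with no filter on low counts, 5 in the 20 libraries with sex and ID series and with the newer quasi-likelihood form, and 42 with the DESeq2 Wald test. The cause was not tested. Leaving out 1 library gave 0 to 15 genes (15 without *Htt* Q111/+ replicate 11, 5 and 6 without *Htt*+/+ replicates 1 and 5, 2 without *Htt* Q111/+ replicate 1 or *Htt*+/+ replicate 9, 0 without *Htt* Q111/+ replicates 2, 5, 6, 7 and 9 or *Htt*+/+ replicates 2, 3, 4 and 7). The nominal count of 1287 was 818 with extraction date (351 up, 467 down) and 851 in the libraries of shared dates (470 down), and 967 to 1675 with 1 library left out (427 to 729 up, 540 to 946 down). The count for the interaction was 0 without surrogate variables, 5 with sex and ID series and 3 with the DESeq2 Wald test.

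Replicate numbers did not pair the libraries. Same-numbered libraries correlated at −0.241 to 0.167 over 9 numbers, and 0 correlated best with their own number. With the replicate block the adjusted count was 0 and the nominal count 848 (454 down), and with the block in place of surrogate variables they were 23 and 2336 (1087 up, 1249 down). *Pnmt* kept its direction and a nominal p under 0.05 in all 19 alternatives and all 20 fits with a library left out, and its adjusted p stayed under 0.05 in 15 and 10 of these. Of 150 named genes followed, 0 changed direction together with an adjusted p under 0.05, and 28 not past it as reported passed it in at least 1 setting. With the block beside surrogate variables, 5 of 30 cyclic AMP and DARPP-32 genes, 2 of 7 indirect-pathway genes, 0 of 25 other striatum-enriched genes and 7 of the study's 29 genes passed the nominal threshold downward. The down count of the MSN markers was lowest at 3 over the 19 alternatives, and the fewest of them passed in this setting. At the lowest levels, such as *Tcap* at 0.0888 to 1.02 CPM, depth limits what could be detected.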
